A study of Mus musculus with 6 samples.

Results

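The genes described here build the acrosome and the surface of the sperm head, or start egg activation. The acrosome is a secretory vesicle that caps the nucleus. Its enzymes and matrix proteins are released near the egg coat, which exposes membrane proteins such as IZUMO1 that let sperm and egg fuse. Fusion delivers factors such as the phospholipase PLCZ1, which sets off calcium waves in the egg. These proteins are made from transcripts of round and elongating spermatids, and mature sperm, which are taken to be silent in transcription, keep a remnant of that RNA.

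Members were taken from 32 gene symbols, of which 31 had a row in the count tables, of 23229 annotated genes and 25610 genes and assembled regions in all. The absent symbol, Hrb, is an older name of Agfg1, which is given below among the other acrosome biogenesis genes. The rule takes rows by these symbols and uses no measured value, although the list of symbols was drawn up with earlier results of these data known. A count was present for 30 of them, and Spaca4, a sperm surface protein gene, had none in any library.

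The series set RNA of sperm nuclei against RNA of whole sperm, to ask how transcripts are partitioned within the cell. All mice were adults of the C57BL/6 transgenic line HP3.1, 4 months old, whose transgene the labels do not describe, and every group carried it. Sperm came from the cauda epididymis and vas deferens. Nuclei were freed by sonication and spun through sucrose and CsCl with Triton X-100, and whole sperm had neither step. There were 2 nuclei libraries and 1 whole-sperm library, each deposited as 1 column for 2 runs, and the labels do not say whether they came from separate animals. Whole sperm therefore has no spread of its own, and the spread between the nuclei libraries may be technical.

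The nuclei libraries held 5487306 (nuclei 1) and 6648848 (nuclei 2) reads in genes and regions, and the whole-sperm library 8316345. All 11 late germ cell markers (such as protamines and transition proteins) had counts in every library, and they took 0.504%, 0.503% and 0.294% of counts in that order. In both nuclei libraries 7 of the 11 lay above whole sperm and 2 below, against 26.7% and 36.9% of all tested features. Markers of epididymal and vas deferens epithelium took 0.279%, 0.299% and 1.84%. Of their 16 tested genes, 15 lay below whole sperm in both nuclei libraries, against 36.9% of all tested features. The test with edgeR called 2 of the 16 lower, against 0.0957% of all tested features. Of that list, Lcn5, Lcn8, Lcn10 and Rnase10 were at 0 in every library. Leukocyte markers took 0.00126 to 0.00278% of counts, and smooth muscle and stroma markers 0.00809 to 0.0136%. Sertoli and Leydig cell markers took 0.00643%, 0.00984% and 0.0194% in the same order, with Amh, Star, Hsd3b1 and Insl3 at 0 throughout. Cyp17a1 was also at 0 in nuclei 2 and whole sperm, where only Sox9 and Clu of this list had counts. The part of these other cells in the members' values was not tested beyond a scaling to the germ cell markers, given below. In such bulk samples, fewer cells of a type and less RNA per cell cannot be told apart.

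Promoters are shown first, because the member with most counts, Ace, has a start for each of its forms. Ace encodes angiotensin-converting enzyme. The somatic form starts at the head of the gene, and the shorter testis form, which sperm need for fertility, starts inside it. RefSeq (build GRCm38.p6) held windows for 25 of the 31 members. Each sequence below is the 250 bases before an annotated start, read along the gene, and capitals mark a match to TGACG or TGAGGTCA on either strand, motifs that resemble the binding site of the spermatid activator CREM. The first pair are the somatic start of Ace (chr11:105967698-105967947, + strand) and its testis start (chr11:105974939-105975188, + strand). Prss37 (chr6:40519509-40519758, - strand) is shown as a member with high counts and Izumo1 (chr7:45621561-45621810, + strand) as the fusion gene with few.
Ace somatic start: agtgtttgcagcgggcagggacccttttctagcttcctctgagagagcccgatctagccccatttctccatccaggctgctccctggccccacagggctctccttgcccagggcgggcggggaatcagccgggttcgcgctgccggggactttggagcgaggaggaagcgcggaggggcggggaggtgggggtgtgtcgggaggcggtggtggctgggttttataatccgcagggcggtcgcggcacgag
Ace testis start: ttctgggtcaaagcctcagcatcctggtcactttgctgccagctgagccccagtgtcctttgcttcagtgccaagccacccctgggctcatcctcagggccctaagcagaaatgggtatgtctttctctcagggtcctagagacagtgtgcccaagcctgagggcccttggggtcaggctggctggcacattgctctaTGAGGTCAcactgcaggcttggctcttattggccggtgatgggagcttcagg
Prss37: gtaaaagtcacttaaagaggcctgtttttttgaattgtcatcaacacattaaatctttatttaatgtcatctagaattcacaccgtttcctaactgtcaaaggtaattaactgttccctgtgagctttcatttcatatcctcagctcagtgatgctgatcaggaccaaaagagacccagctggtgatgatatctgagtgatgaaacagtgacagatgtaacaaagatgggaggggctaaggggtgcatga
Izumo1: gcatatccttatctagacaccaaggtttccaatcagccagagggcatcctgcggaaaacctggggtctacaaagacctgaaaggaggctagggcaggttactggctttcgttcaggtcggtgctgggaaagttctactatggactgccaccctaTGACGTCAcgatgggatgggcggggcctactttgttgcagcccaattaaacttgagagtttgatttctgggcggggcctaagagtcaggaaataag
The testis start of Ace held TGAGGTCA, beginning 52 bases before the start, and its somatic start held neither motif. Izumo1 held overlapping TGACG matches at 96 and 93 bases, on opposite strands, and the Prss37 window held no match. Of the members' 29 windows, 8 held TGACG (6 genes) and 5 held TGAGGTCA (4 genes). Among all 32851 windows of that length the shares were 17.8% and 1.94%. The windows of Spaca1 overlap and share matches, as do those of Spaca3, so windows are not independent. Some windows also reach into annotated exons. Exon took 238 of the 250 bases for Acrbp and 126 and 124 for the windows of Spaca1, and their matches lie in it. Dkkl1, with 250 exon bases, and Pick1, with up to 209, held no match. The difference from all windows was not tested. A match describes these letters only, and no match says nothing about a factor.

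No member was called in the comparison of nuclei with whole sperm. Of 31 members, 28 passed the filter on low counts, and none had an adjusted p under 0.05 (edgeR quasi-likelihood test, Benjamini-Hochberg over 16720 features), where 0.0658% of features were called higher in nuclei and 0.0957% lower. At an unadjusted p under 0.05 stood 2 members, Ace and Acrbp, both higher in nuclei, against 3.77% of all features on that side and 2.07% on the other. DESeq2 gave an adjusted p to only 3 members and called Ace (log2 1.69, adjusted p = 0.0175) on a background of 17.6% called higher and 3.36% lower among the 1161 features with one. From limma on log2(RPKM + 0.1) no member was called either, with 5 of 30 at an unadjusted p under 0.05 in either direction, against 13.8% of features. The count was 9 of 30 on log2(RPKM + 1), against 16.4%, and 1 of 21 from a mean of 1 RPKM, against 6.56%. Levels and folds below describe these libraries, and the spread between nuclei preparations was wide (biological coefficient of variation 1.30 over all features).

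The members did not move as a block. In 10 of the 28 tested members both nuclei libraries lay above whole sperm, against 26.7% of tested features, and in 12 both lay below, against 36.9%. The other 6 were split. The median log2 difference of the 28 was -0.56, beside 0.27 over all features. A bound of 3 counts was set for Spaca3, Spaca5 and Spam1, the tested members at 0 in whole sperm or in both nuclei libraries. It left the median at -0.56 and could not have moved it, since these genes stay far to either side. The gap to all features rests on both nuclei libraries together. From nuclei 2 alone the medians were -0.104 and -0.0352. From nuclei 1 alone the members' median was -0.0620 and that of all features was level with whole sperm. The gap also depends on the setting. From limma at a mean of at least 1 RPKM, 21 members had a median of -0.02 beside -0.53 for all features. Of 11 members with a mean of at least 10 CPM (counts scaled to a common library size, TMM-normalised), 7 were above in both nuclei libraries and 4 below, against 37.6% and 35% of the 7447 features at that level. Their median was 1.39, beside 0.20 for those features, and with spike-in scaling Pick1 and Wbp2nl, among the 7, were below whole sperm. Of the 17 members under 10 CPM, 3 were above, 8 below and 6 split, with a median of -0.75 beside 0.41. The difference between members of higher and lower counts was not tested.

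**Figure D1:**
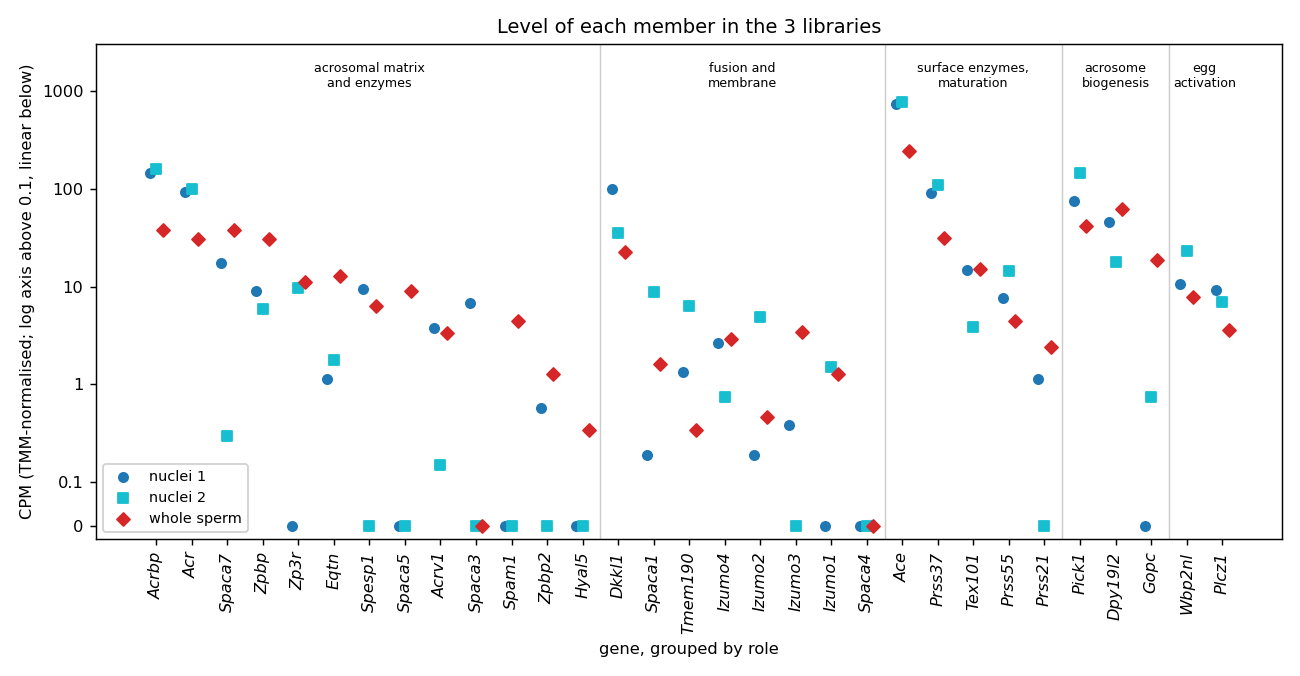
Level of the 31 members in nuclei 1, nuclei 2 and whole sperm, in TMM-normalised CPM (vertical axis, logarithmic above 0.1 and linear below), with genes grouped by role along the horizontal axis; each point is 1 library. Ace, Acrbp, Acr, Prss37, Pick1 and Dkkl1 have both nuclei points above whole sperm, while Spaca5 and Spam1 are at 0 in both nuclei libraries.

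Ace led the members in every library. Its reads numbered 3802 in nuclei 1, 5173 in nuclei 2 and 2085 in the whole-sperm library, or 725, 775 and 241 CPM. The nuclei values lay close together and both above whole sperm. Nuclei stood at 750 ± 35.3 CPM (SD, n = 2), 3.12-fold the whole-sperm level (log2 1.64 ± 0.80 SE, edgeR adjusted p = 0.804). Scaling to the spike-ins, which moved the median of all features from 0.27 to -1.16, left Ace at log2 0.20. Ace alone made up 53.1% and 54.3% of the members' counts in nuclei and 37.2% in whole sperm. The gene spans chr11:105967945-105989964 in build mm10, with the testis transcript starting at 105975208. Counts are per gene, so the somatic and testis forms cannot be told apart in them, nor can the antisense gene Gm11651, whose exons overlap. The deposited RPKM table (a measure scaled by transcript length and library size, but not these counts rescaled) lists Ace under its testis transcript. Epididymal epithelium also makes Ace, and the summed markers of that epithelium took a smaller share of counts in both nuclei libraries than in whole sperm, while Ace took a larger one. The part of epithelial RNA in the Ace counts was not tested.

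All members together took 0.131% of counts in nuclei 1 (exact Clopper-Pearson 95% interval 0.128 to 0.134), 0.143% in nuclei 2 (0.140 to 0.146) and 0.0675% in whole sperm (0.0657 to 0.0693). The nuclei intervals lay above that of whole sperm, though such intervals cover counting error only. Without Ace the shares were 0.0612%, 0.0655% and 0.0424%. When libraries were scaled to the 11 late germ cell markers, an alternative chosen after seeing the data, Ace stood at log2 0.78 and Acrbp at 1.11 in nuclei over whole sperm (edgeR adjusted p = 0.867 for each), and the median of all features at -0.59.

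Of the 13 acrosomal matrix and enzyme genes, 2 (Acr and Acrbp) had both nuclei libraries above whole sperm, 8 had both below and 3 were split. Acr encodes acrosin, the trypsin-like protease of the acrosome, and Acrbp the protein that binds its precursor. Acr (chr15:89568326-89574585) had 479, 662 and 267 counts (here and below in the order nuclei 1, nuclei 2, whole sperm), or 91.3, 99.2 and 30.8 CPM. Acrbp (chr6:125049689-125063267) had 751, 1053 and 331 counts, or 143, 158 and 38.2 CPM. In CPM both genes were even between the nuclei libraries and above whole sperm in each, at 3.09-fold for Acr (log2 1.63, edgeR adjusted p = 0.909) and 3.94-fold for Acrbp (log2 1.98, adjusted p = 0.663). With spike-in scaling these values were log2 0.19 for Acr and 0.54 for Acrbp. In RPKM Acr was less even, at 18.5, 41.4 and 13.2. Exons of Acrbp overlap those of the antisense gene 4930557K07Rik, and without a stated strand setting their reads cannot be told apart. Exons of Gm44597, on the same strand, overlap those of Acrbp as well.

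Zpbp, Zpbp2, Zp3r and Eqtn lay below whole sperm in both nuclei libraries. Zpbp, an acrosomal matrix gene needed for a compact acrosome, had 47, 39 and 265 counts, or 8.96, 5.84 and 30.6 CPM, 4.13-fold lower in nuclei (edgeR adjusted p = 0.909). Its relative Zpbp2 had 3, 0 and 11 counts and was not tested. Zp3r, the matrix protein once known as sp56, had 0, 64 and 96 counts, so 1 nuclei library had none while the other, at 9.59 CPM, was near the 11.1 CPM of whole sperm. Eqtn, which encodes equatorin of the acrosomal membrane, had 6, 12 and 112 counts, 8.79-fold lower in nuclei, with both libraries well below whole sperm (adjusted p = 0.932). Exons of Zpbp overlap those of Spata48 on the opposite strand, so its counts may hold reads of that gene.

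Lysozyme-like and hyaluronidase genes were counted in some libraries and at 0 in others, all at low depth. Spaca5, an X-linked lysozyme-like gene (chrX:21068406-21077963), had 78 counts in whole sperm and none in either nuclei library, at least 17.6-fold lower when each nuclei library is set to the limit of 3 counts that a 0 allows. Spaca3, the other lysozyme-like member, had 36 counts in nuclei 1 and none elsewhere. The pair thus had no library in common. Spam1, the hyaluronidase PH-20 that helps sperm through the cumulus and is also made in the epididymis, was also at 0 in both nuclei libraries, with 39 counts in whole sperm, which puts it at least 8.81-fold lower. Hyal5, the other hyaluronidase, had 0, 0 and 3 counts, too few for a fold. Adjusted p-values of Spaca3, Spaca5 and Spam1 were each 0.909 (edgeR). The bounds on these folds cover counting error at the 0 only. They leave out the spread between preparations and take the whole-sperm count as exact.

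Other acrosomal genes differed between the nuclei preparations. Spaca7, whose protein is released from the acrosome, had 92, 2 and 328 counts, or 17.5, 0.300 and 37.9 CPM. Spesp1, of the equatorial segment, had 49, 0 and 55 counts, so nuclei 1 was above whole sperm in CPM and nuclei 2 at 0. Acrv1, the matrix antigen SP-10, had 20, 1 and 29 counts. In all 3 genes nuclei 2 was the low library. Exons of Spaca7 overlap those of the noncoding gene D630011A20Rik.

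**Figure D2:**
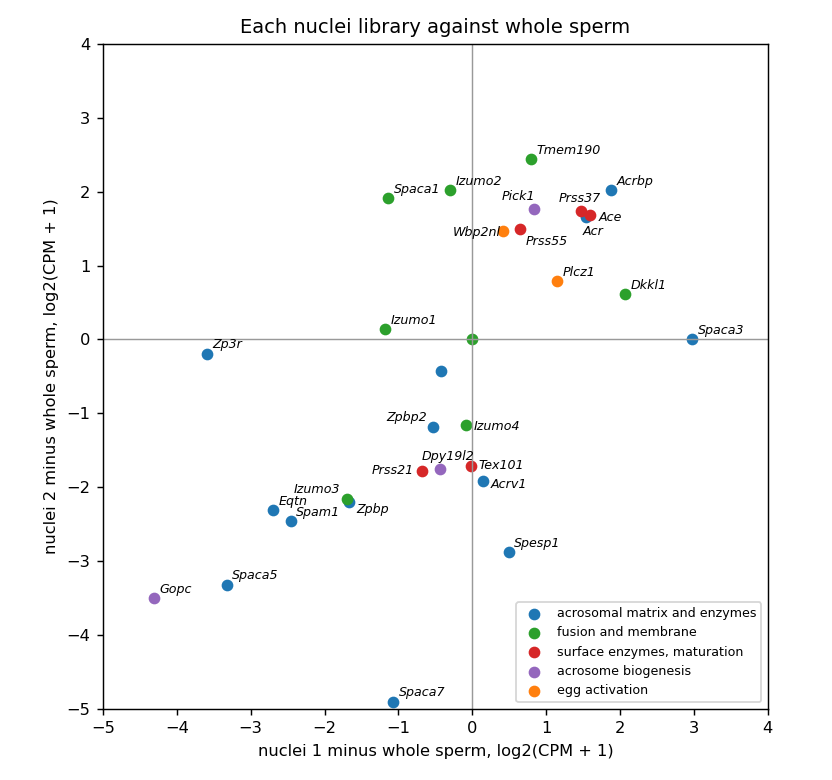
Difference of nuclei 1 (horizontal) and nuclei 2 (vertical) from whole sperm for each member, both in log2(CPM + 1), coloured by role; each point is 1 gene. Acrbp, Ace, Acr and Prss37 lie near the diagonal above 0, Gopc and Spaca5 near it below 0, and Spaca7, Zp3r and Spaca3 lie far from it.

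Fusion and membrane genes were scarce, apart from Dkkl1. Of 8 members, 2 had both nuclei libraries above whole sperm, 2 had both below, 3 were split and Spaca4 had no count. Dkkl1, which encodes a dickkopf-like protein of the acrosome (chr7:45207519-45212147), had 517, 235 and 197 counts, or 98.6, 35.2 and 22.7 CPM. Nuclei 1 was far above the others and nuclei 2 only somewhat above whole sperm, which gave 66.9 ± 44.8 CPM in nuclei (SD, n = 2) and log2 1.56 ± 1.06 SE (edgeR adjusted p = 0.909). Without nuclei 2 the log2 value was 2.12, without nuclei 1 it was 0.63, and with spike-in scaling 0.13.

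The IZUMO family had no more than 33 counts in any library. Izumo1, whose protein binds the egg receptor JUNO, had 0, 10 and 11 counts, and its exons overlap those of Rasip1. Izumo2 had 1, 33 and 4 counts, Izumo3 had 2, 0 and 30, and Izumo4 had 14, 5 and 25. These paralogs did not share a pattern: Izumo2 was highest in nuclei 2, Izumo3 in whole sperm, and Izumo4 was at 2.67 CPM in nuclei 1, near its 2.89 CPM in whole sperm. Izumo3 was 18.2-fold lower in nuclei (edgeR adjusted p = 0.944) on 2 nuclear counts in all, so that fold is imprecise. Spaca1, an inner acrosomal membrane gene, had 1, 59 and 14 counts and Tmem190, a membrane protein found with IZUMO1, had 7, 42 and 3. Both were highest in nuclei 2. For Tmem190 the ratio of pooled nuclei to whole sperm was 11.9 (95% counting interval 3.83 to 59.6).

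Besides Ace, the surface enzyme and maturation genes were Prss37, Prss55, Tex101 and Prss21. Of these 5 members, 3 had both nuclei libraries above whole sperm and 2 had both below. Prss37, a protease-like gene needed to process ADAM3 on sperm (chr6:40514824-40519508), had 468, 722 and 274 counts, or 89.2, 108 and 31.6 CPM. Both nuclei libraries were close and above whole sperm, 3.12-fold (log2 1.64 ± 0.95 SE, edgeR adjusted p = 0.909), or log2 0.21 with spike-in scaling. Prss55, a related membrane protease, had 40, 97 and 39 counts, or 7.63, 14.5 and 4.50 CPM, and with spike-in scaling it lay below whole sperm (log2 -0.14). It overlaps Prss51 on the opposite strand, though their exons are apart, and Prss51 had 165, 304 and 22 counts. The remaining members of this role lay below whole sperm in both: Tex101, a GPI-anchored germ cell protein, had 78, 26 and 130 counts (log2 -0.68), with nuclei 1 near whole sperm per library size, and Prss21, the gene of testisin, had 6, 0 and 21.

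The 3 acrosome biogenesis members differed among themselves. Pick1, which encodes a PDZ protein that carries vesicles to the forming acrosome (chr15:79229173-79249484), had 396, 966 and 364 counts, or 75.5, 145 and 42.0 CPM (log2 1.39 ± 0.91 SE, edgeR adjusted p = 0.909), and with spike-in scaling was at log2 -0.0501. Gopc, its Golgi partner (chr10:52335850-52382124), had 0, 5 and 163 counts, or 0, 0.749 and 18.8 CPM. In the TMM-scaled counts the partners lay on opposite sides, and Gopc was 50.2-fold lower in nuclei by mean CPM, on 5 nuclear counts (edgeR adjusted p = 0.909). Dpy19l2, which anchors the acrosome to the nuclear envelope (chr9:24557047-24696293), had 240, 118 and 539 counts, or 45.8, 17.7 and 62.2 CPM, below whole sperm in both nuclei libraries although its protein sits at the nucleus. Exons of Pick1 overlap those of Gm49486 on the same strand, and exons of Gopc those of Gm26741 on the other.

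Both egg activation members lay above whole sperm in each nuclei library. Plcz1, the sperm phospholipase that starts calcium waves in the egg (chr6:139989673-140041457), had 48, 46 and 31 counts, or 9.15, 6.89 and 3.58 CPM, 2.24-fold (edgeR adjusted p = 1.000). Wbp2nl, a WW-domain-binding protein of the postacrosomal sheath (chr15:82298954-82314623), had 56, 155 and 67 counts, or 10.7, 23.2 and 7.73 CPM, 2.19-fold (adjusted p = 0.989). Neither difference passed the test. Exons of Plcz1 overlap those of Capza3 on the opposite strand. With spike-in scaling both lay below whole sperm, at log2 -0.27 for Plcz1 and -0.31 for Wbp2nl.

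Between genes, levels were compared per length in the RPKM table. Its values are not the counts above rescaled, and how its reads were assigned is not stated in the sources used here. Prss37 had 468 and 722 counts in nuclei 1 and nuclei 2 but 32.3 and 32.2 RPKM. Acr had 479 and 662 counts there but 18.5 and 41.4 RPKM. In nuclei Ace led at 91.8 ± 11.1 RPKM (SD, n = 2), followed by Acrbp at 49.6 ± 12.9 RPKM. Next came Prss37 at 32.3 ± 0.0373, Acr at 29.9 ± 16.2, Dkkl1 at 27.5 ± 14.8 and Pick1 at 25.8 ± 12.5 RPKM, an order in which these 4 neighbours did not differ beyond their spread. In whole sperm Ace also led at 42.9 RPKM, but the second was Spaca7 at 33.7 RPKM, ahead of Prss37 at 16.7, Pick1 at 15.8 and Dkkl1 at 15.4. Spaca7 was at 8.44 and 0.226 RPKM in the nuclei libraries.

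**Figure D3:**
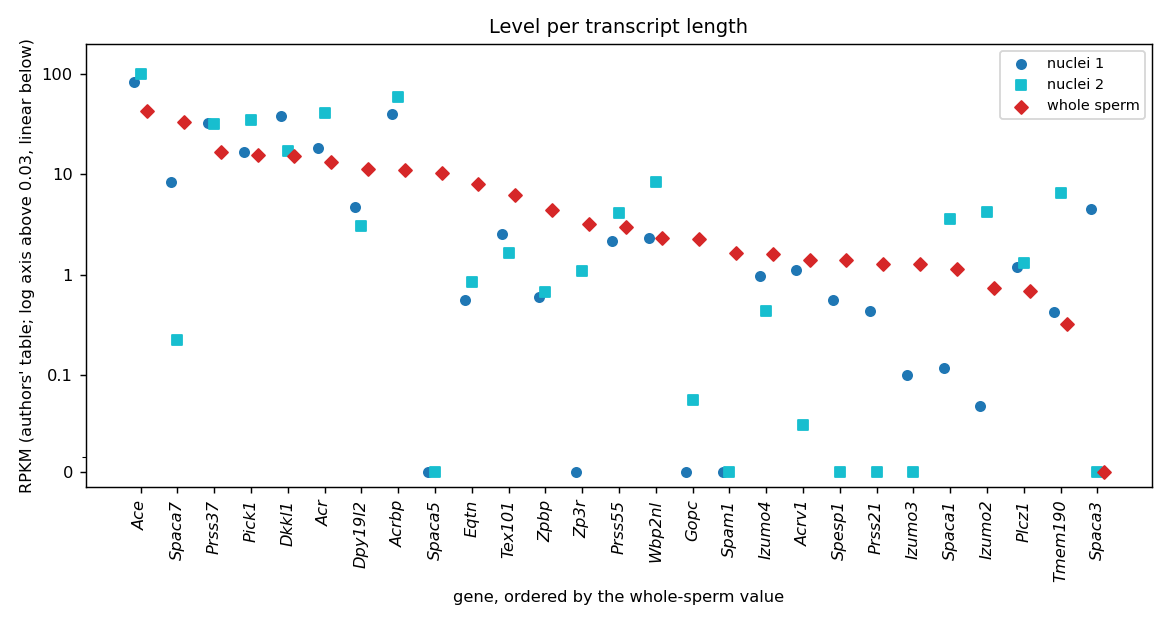
Level per transcript length, in RPKM from the authors' table (vertical axis, logarithmic above 0.03 and linear below), for the members over 1 RPKM in any library, ordered along the horizontal axis by the whole-sperm value; each point is 1 library. Ace is highest in all 3 libraries, and Spaca7 is second in whole sperm at 33.7 RPKM but at 0.226 RPKM in nuclei 2.

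Counts and RPKM classed 27 of the 31 members alike, as above whole sperm, below it or split. Both nuclei libraries were above in both tables for 8 members and below in both for 14. Spaca1, Spaca3, Izumo1 and Izumo2 were split in both and so on no side, and Spaca4 was at 0 in both. Prss55 and Wbp2nl were above in counts but split in RPKM, where whole sperm was at 3.02 and 2.33 and nuclei 1 at 2.16 and 2.33. Acrv1 and Spesp1 were split in counts and below in RPKM. The authors' deposited adjusted whole-sperm column, in which each whole-sperm count has been reduced by the nuclei mean, down to 0 at the lowest, lists 0 for 12 of the 29 members that had counts in whole sperm. Among them are Ace, Acr, Acrbp, Dkkl1, Prss37, Pick1, Plcz1 and Wbp2nl, while Spaca5 kept all 78 counts and Gopc 161 of 163.

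Members with more reads differed between the nuclei preparations as follows. Over the 17 members of at least 100 counts in all, the median absolute difference between nuclei 1 and nuclei 2 was 0.85 on the log2(CPM + 1) scale. Over 10734 features of that depth it was 1.18. The difference between these medians was not tested.

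Other genes of the same processes were taken by list. Of 67 such genes, 63 had rows and 53 were tested, and none was called by edgeR in either direction (5 at an unadjusted p under 0.05, where 3.77% of all features were higher and 2.07% lower). In 18 both nuclei libraries lay above whole sperm, in 14 both lay below and 21 were split, against 26.7% above and 36.9% below over all features. Their median was 0.29 beside 0.27. By list, both nuclei libraries were above whole sperm for 5 and below for 1 of 12 acrosomal protease and lysozyme-like genes, and for 5 and 0 of 9 perinuclear theca genes. The counts were 1 and 5 of 7 for acrosome exocytosis, 3 and 5 of 12 for acrosome biogenesis, 4 and 3 of 10 for fusion and binding, and 0 and 0 of 3 for sperm chaperones.

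Among the proteases, Pcsk4, a proprotein convertase of the acrosomal membrane, had 834, 2376 and 560 counts (nuclei 257 ± 139 CPM, whole sperm 64.6 CPM, log2 1.99, edgeR adjusted p = 0.587), and DESeq2 called it (adjusted p = 0.0406). Prss52 stood at 178 ± 15.6 and 85.3 CPM, Spink2, an acrosomal protease inhibitor, at 72.9 ± 10.5 and 49.0 CPM, and Prss51 at 38.5 ± 9.95 and 2.54 CPM. Each of these 4 was above whole sperm in both nuclei libraries. Cplx2, a complexin that clamps SNARE-driven exocytosis, had 1300, 1261 and 567 counts (log2 1.74, adjusted p = 0.755), whereas Stx2 and Napa, of the same machinery, were below whole sperm in both. Crisp2, the testicular CRISP gene, stood at 55.0 ± 22.2 CPM in nuclei against 140 CPM (log2 -1.35, edgeR adjusted p = 0.909; log2 -2.79 and adjusted p = 0.0187 with spike-in scaling). In the same list 4930451I11Rik was at 31.7 ± 14.3 and 5.77 CPM, Cd46 at 98.2 ± 20.6 and 80.3 CPM, and 1700034O15Rik was split.

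Of the biogenesis genes, Agfg1, the listed form of Hrb, had 125, 59 and 97 counts. Atg7, an autophagy gene needed for acrosome formation, had 419, 457 and 127 counts and was even between nuclei libraries (74.2 ± 8.08 and 14.7 CPM, log2 2.34, edgeR adjusted p = 0.728). Csnk2a2, a casein kinase subunit whose loss misshapes the sperm head, had 86, 11 and 358 counts and lay on the other side. Fads2 was at 60.7 ± 5.82 and 116 CPM, and Spata16 at 63.1 ± 14.8 and 72.6 CPM. In the perinuclear theca, the sheath that also holds the egg activation proteins, Cylc2, the gene of cylicin 2, had 172, 216 and 127 counts and Wbp2, a relative of Wbp2nl, 486, 1622 and 706, both above whole sperm in each nuclei library. Actl7a and Capzb were split, as were the chaperone genes Calr3 (361, 680 and 762 counts), Clgn and Pdilt, while Tmem30c had a single count. Actrt2, outside the naming rule and picked with its values known, had 17, 240 and 0 counts, at least 56.6-fold higher in nuclei, most of it from nuclei 2. That bound, too, covers counting error at the 0 only.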

How the data were processed

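RNA of 2 sperm nuclei preparations and 1 whole-sperm preparation was sequenced, with 2 runs of each taken as combined. The count columns hold whole-number reads per gene, assembled region or spike-in, deposited by the authors without normalization. RPKM were deposited too, likewise by preparation, and the authors' deposited adjusted whole-sperm column was handled as a score. Assembled regions came as deposited coordinates; none overlapped a member. The build was mm10, and the tools were HTSeq, bedtools, TopHat2 2.0.12, SAMtools 0.1.19, Cufflinks 2.1.1, DESeq2 and CASAVA 1.8.2, per the submitters' processing notes; for their roles and the strand setting nothing is stated in the sources used here. Rows for reads outside features (34.4% of the whole-sperm file) and ambiguous reads (1.97%) were left out, as were spike-ins.

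Counts were fitted with edgeR 4.0.16 (R 4.3.3; TMM factors, filterByExpr, quasi-likelihood test) over all genes and regions, 2 nuclei libraries against 1, with 1 residual degree of freedom. Whole sperm is assumed to vary like nuclei, and with infinite prior degrees of freedom the p-values rest on a spread pooled over genes. The fit was tested on simulated data with a smaller spread between libraries than here and with large changes. That test does not show how the fit performs on these libraries. Standard errors derive from the F statistic. CPM are TMM-normalised, and log2 differences are nuclei over whole sperm. DESeq2 1.42.0 and limma 3.58.1 on log2(RPKM + 0.1) served as alternatives, with other scalings and filters. GENCODE vM21 (mm10) gave gene positions and overlaps, and RefSeq (GRCm38.p6) the promoters.

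The naming rule gives values in every library for members with at least 100 counts in all, past the test, or at 0 in a library with at least 20 in another; the remaining members' counts were added. Of the other genes, those past the test and up to 4 per list with the highest mean are named, with Agfg1 and Actrt2 added; a gene that the rule takes is not reported here. The members and lists were chosen with earlier results of these data known.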

Additional observations from a re-analysis of the deposited data

How the results depend on the processing

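No member was called under any setting that gives a test except DESeq2, which called 1 (Ace). Of the other fertilisation genes, 1 was called with DESeq2 (Pcsk4) and 1 with spike-in scaling (Crisp2). The members' median of -0.56 was -0.51 with DESeq2 size factors and with DESeq2, -0.68 with library size alone, -0.48 without the 10 most abundant features, -0.71 without a filter, -1.98 with spike-in scaling and -1.45 with scaling to germ cell markers. Over all features it was 0.32 with both DESeq2 settings, 0.18 with library size alone, 0.35 without the 10 most abundant features and 0.31 without a filter. From limma the members' median was -0.90 on log2(RPKM + 0.1), -0.35 on log2(RPKM + 1) and -0.02 from a mean of 1 RPKM. All features stood at -0.46, -0.11 and -0.53 there, so the last setting put the members above them. With a filter of at least 10 CPM the sign was reversed, as the median of the 11 members left was 1.28, beside 0.087. In the main fit these 11 members had a median of 1.39, and the members under 10 CPM, which that filter drops, one of -0.75. From a single nuclei library the members' median was -0.104 to -0.0620. Spike-in scaling turned Prss55 (-0.14), Plcz1 (-0.27), Wbp2nl (-0.31) and Pick1 (-0.0501), and limma turned Prss55 (-0.0196 with a pseudocount of 0.1, with or without the filter, and -0.00305 with 1); the cause was not tested. Spesp1 ranged from -8.61 to 0.56 over single nuclei libraries, positive from nuclei 1 alone. Of the 22 members that the naming rule takes, the others kept their direction under every alternative that could fit them, except Spaca3, at 0 from nuclei 2 alone. Without Rn45s and Lars2, which collect ribosomal RNA reads, the members' share was 0.242% in nuclei, against 0.137%, and 0.134% in whole sperm.

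Leaving out whole sperm is not possible with 1 library, and a single nuclei library gives values with no test. No paired analysis was possible because whole sperm has 1 library and the columns carry no number shared with nuclei.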
